A study of Mus musculus with 8 samples.

Results

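H3K36me3 was examined on 10 genes that encode transcription factors of mesenchymal cells: Twist1, Twist2, Tcf4, Snai1, Snai2, Zeb1, Zeb2, Prrx1, Runx1 and Fosl1. They were chosen by name, for their known role, with earlier results of these data known, and are 10 of 21853 protein-coding genes on chromosomes 1 to 19, X and Y. A gene body was the longest protein-coding transcript of the gene in GENCODE release M21, in mm10 coordinates. The cells were i4F MEFs, mouse embryonic fibroblasts from E13.5 embryos that carry a doxycycline-inducible cassette of OCT4, SOX2, KLF4 and MYC (OSKM). All libraries came from 1 embryo, called Clone 1 in the labels and MEF 1 in the study, whose cells the study picked because they reprogram efficiently. After 72 h in medium for induced pluripotent stem (iPS) cells, 4 conditions were collected: untreated (MEF), 2 µM vitamin B12 (MEF B12), doxycycline (OSKM), and doxycycline with 2 µM vitamin B12 (OSKM B12). The labels give doxycycline at 1 µg/ml, and the study's methods give it in mg/ml. A single H3K36me3 library with its input stands for each of the 4 conditions, so no p-value or replicate spread can be given and every statement compares libraries. The cells were collected in bulk, so fewer cells with the mark and less mark per cell cannot be told apart.

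H3K36me3 is written by SETD2, which travels with elongating RNA polymerase II, so the mark lies along the bodies of transcribed genes and grows towards their 3′ ends. SNAIL, ZEB and TWIST proteins drive the epithelial to mesenchymal transition by repressing epithelial genes such as Cdh1 through E-box elements, while PRRX1, RUNX1 and the AP-1 subunit FRA1 act at enhancers that keep the fibroblast state. Early reprogramming by OSKM runs through the opposite change, a mesenchymal to epithelial transition, in which these factors are usually lowered.

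The H3K36me3 libraries held 29046913 to 33399267 tags after filtering, and the inputs 34524486 to 36150875. The authors' broad peaks covered 92.8 Mb of the genome in OSKM and 154 to 166 Mb in the other 3 libraries. The OSKM library thus stood apart, and a lower value in it was common to most genes. In it, 3.31% of peaks reached a −log10 q of 5, against 15 to 19.1% in the other 3. Of the markers of other cell types, 0 of 6 epithelial and 0 of 4 muscle genes had a peak in any library. The pluripotency markers had a peak on 1 of 8 genes in OSKM, at a summed density of 0.00683, and on 0 in the other 3 libraries. All 8 fibroblast markers had peaks in every library, with a summed density of 3.41 in OSKM and of 5.56 to 6.37 in the other 3. The endothelial, blood and neural lists had 4 genes each and 1 marked gene each, Tek, Cd68 and Tubb3. Over MEF, MEF B12, OSKM and OSKM B12, peaks covered 100%, 100%, 76.0% and 100% of Cd68, at a density of 0.782 in MEF. In the same order, Tubb3 was covered over 25.1%, 31.7%, 0% and 25.6%, and Tek over 2.84%, 3.63%, 7.85% and 26.6%.

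Values are given on 2 scales. The covered share is the percentage of the gene body that lies in peaks, and the density is the peak pileup per 1000000 H3K36me3 tags summed over the bases in peaks and divided by the length of the body. A gene was called marked when at least 10% of its body was covered in at least 1 library. This held for 9885 genes and for 9 of the 10 transcription factor genes, Twist1 being the exception. The order by density in MEF was Snai1, Prrx1, Runx1, Zeb2, Zeb1, Fosl1, Tcf4, Twist2, Snai2 and Twist1, with 1 library behind each value, so that neighbours in this order could not be compared against a replicate spread. Against the marked genes these were low values. Only Snai1, with 82.5% of marked genes below it in MEF, stood above the median gene, Prrx1 had 45.1% below it, and the other 7 marked members had between 8.46% and 29.7%. The 10 bodies together held 123 and 128 peaks in MEF and MEF B12 and 104 and 145 in OSKM and OSKM B12, with 10, 19, 1 and 18 of them at a −log10 q of 5 or more.

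**Figure D1:**
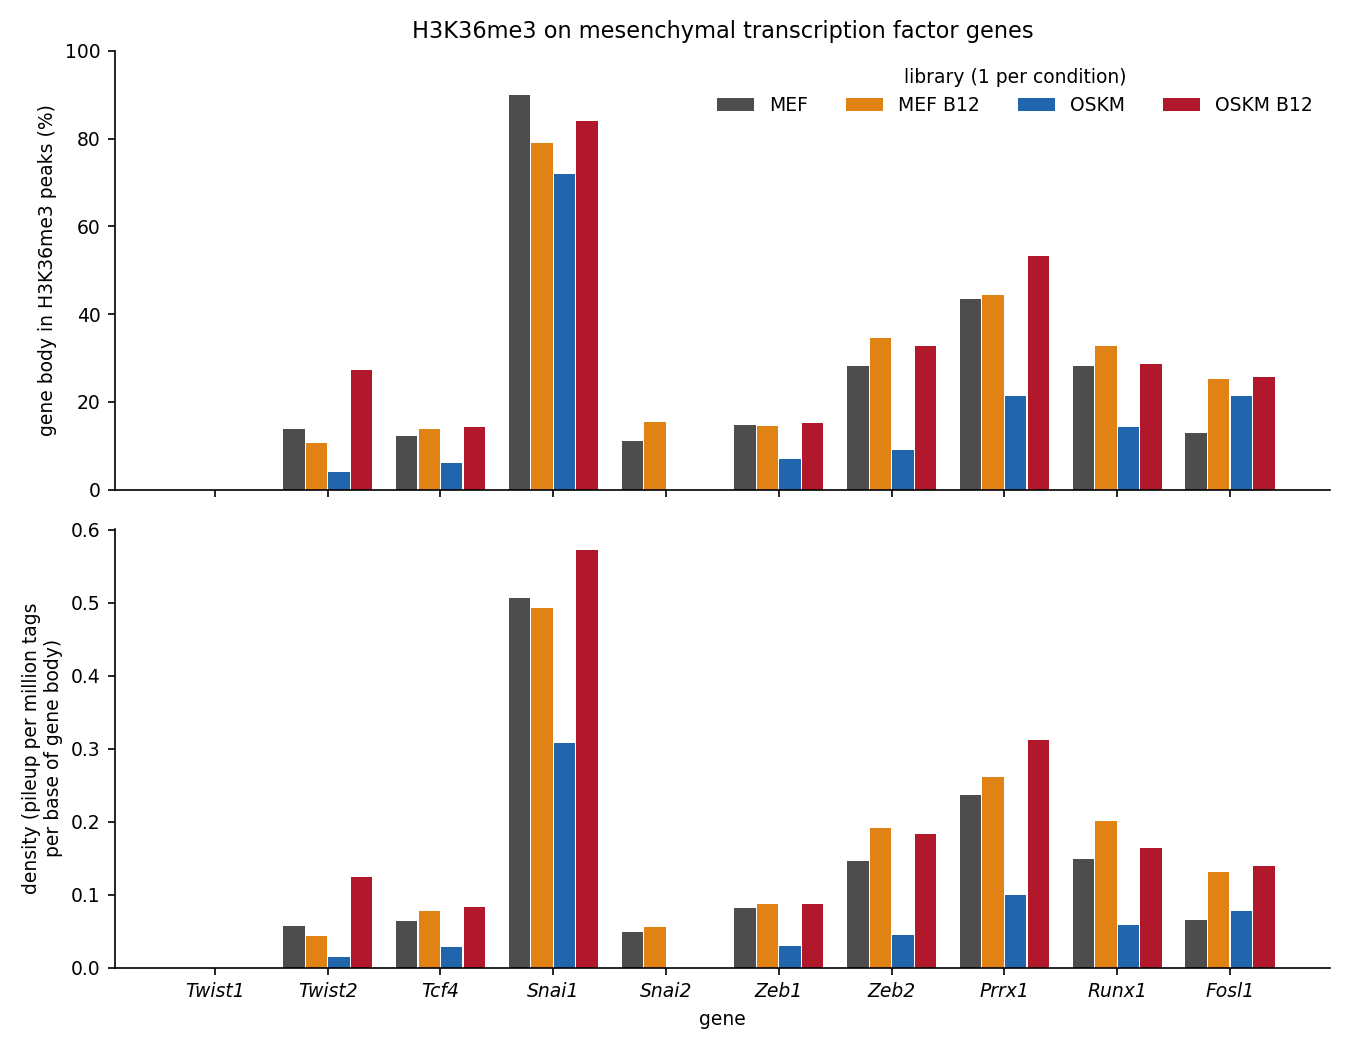
Covered share of the gene body (upper panel, %) and H3K36me3 density (lower panel, pileup per 1000000 tags per base of gene body) of the 10 genes, with 1 bar for each of the 4 libraries and no error bar because each condition had 1 library. Snai1 has the highest bars in every library, Twist1 has none, Snai2 has bars in MEF and MEF B12 only, and the OSKM bar is the lowest of the 4 for Twist2, Tcf4, Snai1, Zeb1, Zeb2, Prrx1 and Runx1.

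Twist1 and Twist2 encode basic helix-loop-helix factors that bind E-boxes as dimers with E proteins, and Tcf4 encodes such an E protein. Tcf4 (chr18:69344489-69689079, + strand) has 9 further annotated starts at least 1 kb apart inside its body. Over MEF, MEF B12, OSKM and OSKM B12 it had a covered share of 12.3%, 13.8%, 6.19% and 14.4% and densities of 0.0644, 0.0784, 0.0281 and 0.0837. With each body cut into 5 equal bins from 5′ to 3′, bin 5 was covered over 47.2%, 48.7%, 27.0% and 55.2%, and bin 3 over at most 1.62% in any library. Downstream of the annotated start 268 kb from the first, the covered share was 42.5%, 43.8%, 24.3% and 49.6%. Upstream of it the share was 1.01 to 5.26%. The mark on Tcf4 therefore lay mainly on the 3′ part that its long and short transcripts share. The strongest peak ran from intron 15 to the 3′ UTR in exon 20 in MEF and OSKM B12, and lay between introns 9 and 10 in MEF B12 and between introns 12 and 13 in OSKM.

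Twist1 (chr12:33957671-33959829, + strand, 2159 bases) had no peak in its body in any library. Its nearest peaks lay past its 3′ end. In the 5 kb downstream, none was covered in MEF (0%) and 27.5%, 24.6% and 29.8% in MEF B12, OSKM and OSKM B12, with 0, 1, 2 and 3 peaks called there. The peak closest to the gene began 3.01 kb from the start site, in MEF B12. Of the genes with no peak in their body, 7.48 to 7.70% had one in this downstream window, depending on the library. The next protein-coding gene, Hdac9, is 87751 bases away.

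Twist2 (chr1:91801461-91848028, + strand) had its peaks in intron 1 and across its 3′ end. Its covered share was 13.8%, 10.6%, 4.06% and 27.2% over MEF, MEF B12, OSKM and OSKM B12, and its density 0.0575, 0.0437, 0.0149 and 0.124. OSKM B12 was thus the highest library and OSKM the lowest. The number of peaks was 10, 8, 4 and 14. Of the 14 peaks in OSKM B12, 6 overlapped no peak of another library, with a median −log10 q of 1.74, which is close to the calling limit. The first peak began 5.35 kb from the start site in OSKM B12 and 12.7 to 25.2 kb from it in the other 3. MEF shared 28.2% of its peak bases with MEF B12, 63.0% with OSKM B12 and 9.55% with OSKM. The peak across the 3′ end was present in all 4 libraries. The strongest intron 1 peak in OSKM B12 (chr1:91824312-91825082, −log10 q 3.55) had no counterpart in the other 3 lists, and the 300 bases at its centre are shown because this intron held the added peaks. Capitals mark the E-box core CANNTG, which reads the same on both strands. The core was present in 83.2% of 300-base windows at the centres of all OSKM B12 peaks, and 81.3% of the bases shown are masked as repeats in the reference, against a mean of 20.8% over those windows.
Twist2 intron 1, chr1:91824548-91824847, GRCm38, + strand: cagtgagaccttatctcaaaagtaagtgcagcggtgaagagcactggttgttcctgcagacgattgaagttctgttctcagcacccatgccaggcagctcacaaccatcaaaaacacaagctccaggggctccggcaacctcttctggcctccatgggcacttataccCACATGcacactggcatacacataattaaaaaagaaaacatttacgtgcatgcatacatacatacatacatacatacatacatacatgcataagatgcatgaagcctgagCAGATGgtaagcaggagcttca

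Snai1 and Snai2 encode the zinc finger repressors SNAIL and SLUG. Snai1 (chr2:167538195-167542814, + strand, 4620 bases) was covered over 90.0% and 79.1% of its body in MEF and MEF B12, and over 71.9% and 84.0% in OSKM and OSKM B12. In the same order its density was 0.506, 0.493, 0.307 and 0.572. A single peak ran from 0.462 kb past the start to beyond the 3′ end in MEF, and the same domain was split into 2 peaks in MEF B12 and 3 in OSKM but not in OSKM B12. Every base of the body called in either doxycycline library was also called in MEF. The 250 bases upstream of its start are shown because SNAIL is known to bind its own promoter. Capitals mark CANNTG, which occurs once, 126 bases before the start, as the CACCTG form that SNAIL and ZEB proteins prefer. Of 32851 RefSeq promoter windows of this length, 17.2% held CAGGTG or its reverse complement CACCTG.
Snai1 promoter, chr2:167537945-167538194, GRCm38, + strand: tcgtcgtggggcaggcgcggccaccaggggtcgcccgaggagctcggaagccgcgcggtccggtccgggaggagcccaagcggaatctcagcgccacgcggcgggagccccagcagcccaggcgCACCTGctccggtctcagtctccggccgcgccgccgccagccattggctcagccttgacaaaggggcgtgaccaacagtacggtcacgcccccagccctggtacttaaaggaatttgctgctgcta

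Snai2 (chr16:14705852-14709385, + strand, 3534 bases) was covered over 11.1% of its body in MEF and 15.3% in MEF B12, and was listed with no peak in both doxycycline libraries. Its density was 0.0496 in MEF and 0.0557 in MEF B12. In both libraries the signal was a single peak in the 3′ UTR of exon 3, of 391 and 542 bases, with a −log10 q of 2.21 and 1.43. Each rested on an estimated 19.6 tags. These are weak peaks near the calling limit, so that in OSKM and OSKM B12 the mark was not detectable at this depth. A second peak, downstream of the gene at 5.34 kb from the start, was called in MEF B12 only. The paralogs thus lay at opposite ends of the list. In MEF the density of Snai1 was 0.506 and that of Snai2 0.0496, and no base of Snai2 was called in all 4 libraries, against 2801 bases of Snai1.

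Zeb1 and Zeb2 encode the large E-box binding repressors ZEB1 and ZEB2. Zeb1 (chr18:5591864-5775467, + strand) was covered over 14.7%, 14.6%, 6.92% and 15.2% of its body in MEF, MEF B12, OSKM and OSKM B12, at densities of 0.0813, 0.0869, 0.0302 and 0.0868. Bins 1 to 3 of the body were nearly bare, with at most 3.90% covered in any library. Bin 5 was covered over 50.3%, 51.5%, 27.3% and 48.1%. In MEF most of this was 1 peak of 18090 bases from intron 3 past the 3′ end, and the number of peaks over the whole gene was 15, 15, 13 and 19.

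Zeb2 (chr2:44983632-45117395, − strand) was covered over 28.2%, 34.5%, 9.12% and 32.6% of its body in MEF, MEF B12, OSKM and OSKM B12, at densities of 0.147, 0.192, 0.0444 and 0.184. OSKM was the lowest library by a wide margin, with 15 peaks against 28 to 31. Of the bases called in MEF, OSKM kept 26.6% and OSKM B12 kept 79.4%. No peak lay upstream of its annotated inner starts at 4.12 and 6.66 kb, and the first peak began 9.62 to 22.1 kb from the first start. Bin 5 was again the most covered, at 65.0%, 66.4%, 25.2% and 60.6%. A short region between introns 3 and 4 that holds the annotated microRNA gene Mir5129 had a peak with a −log10 q of 7.60 in MEF, 5.24 in MEF B12 and 7.80 in OSKM B12, and none in OSKM.

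Prrx1 (chr1:163245119-163313710, − strand), which encodes a paired-type homeodomain factor of limb and craniofacial mesenchyme, was covered over 43.4%, 44.4%, 21.4% and 53.2% of its body in MEF, MEF B12, OSKM and OSKM B12. Its density was 0.236, 0.262, 0.10 and 0.312. Peaks lay along the whole body, with 84.0%, 85.3%, 46.1% and 87.9% of bin 5 covered. The strongest peak of each library lay between introns 1 and 3, and the OSKM peak there (1514 bases, −log10 q 5.35) was the only peak on any of the 10 genes that reached a −log10 q of 5 in OSKM. The antisense gene Gm20471 shares 9.75% of the body, and without bases shared with other genes the covered share was 45.3%, 47.4%, 23.0% and 55.3%.

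Runx1 (chr16:92601466-92826149, − strand) encodes a Runt domain factor and has a distal and a proximal start 128.8 kb apart. Its covered share over the whole body was 28.2% and 32.8% in MEF and MEF B12 and 14.2% and 28.6% in OSKM and OSKM B12, at densities of 0.149, 0.2005, 0.0580 and 0.164. Between the 2 starts, 0%, 0.273%, 0% and 0.562% was covered. Downstream of the proximal start it was 66.1%, 76.5%, 33.2% and 66.2%. The mark was thus found on the part of Runx1 that transcripts from the proximal start cover. Measured from the proximal start, its density was 0.350, 0.468, 0.136 and 0.383. This choice of body was made after the positions were seen, and it put 62.5% of marked genes below Runx1 in MEF, against 29.7% for the whole body. OSKM had more peaks than MEF, 31 against 22, but they were shorter, with a mean length of 1028 against 2881 bases. All 31 of the OSKM peaks overlapped a peak of another library. The sequences upstream of the distal and the proximal start are shown because peaks lay almost entirely downstream of the second. In the distal window, cut at 175 bases where the GENCODE first exon begins, capitals mark 2 CANNTG cores, and one of these is CAGGTG, a form present in 12.7% of RefSeq windows of that length. The proximal window held no CANNTG, which 66.2% of windows of 250 bases held, and neither window held the RUNX motif TGNGGT or its reverse complement ACCNCA, which 30.5% and 40.1% of windows of these lengths held. The G and C content was 45.1% in the distal and 67.6% in the proximal window.
Runx1 distal, chr16:92826150-92826324, GRCm38, − strand: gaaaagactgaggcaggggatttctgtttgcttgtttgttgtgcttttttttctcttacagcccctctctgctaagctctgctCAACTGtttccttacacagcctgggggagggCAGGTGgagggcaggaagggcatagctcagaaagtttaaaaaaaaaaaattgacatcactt
Runx1 proximal, chr16:92697330-92697579, GRCm38, − strand: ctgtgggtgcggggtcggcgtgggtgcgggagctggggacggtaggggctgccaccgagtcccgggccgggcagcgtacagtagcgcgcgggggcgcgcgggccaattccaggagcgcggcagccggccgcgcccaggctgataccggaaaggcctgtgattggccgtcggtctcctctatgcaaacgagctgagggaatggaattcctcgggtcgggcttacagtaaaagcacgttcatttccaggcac

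Fosl1 (chr19:5447547-5455946, + strand, 8400 bases) encodes FRA1, a FOS family subunit of AP-1. Its covered share over MEF, MEF B12, OSKM and OSKM B12 was 13.0%, 25.2%, 21.4% and 25.8%, and its density 0.0658, 0.131, 0.0774 and 0.140. MEF was its lowest library, which set it apart from the other marked members. The protein-coding gene Ccdc85b on the opposite strand shares 2767 bases, or 32.9%, of the body, and the peaks of MEF, MEF B12 and OSKM B12 lay inside the shared bases. ChIP–seq of a histone mark carries no strand, so this signal cannot be assigned to either gene. Outside the overlap, Fosl1 was covered over 15.1% in OSKM and was listed with no peak in the other 3 libraries. This was a single peak in intron 2 (chr19:5451247-5452094, 848 bases, −log10 q 1.80, fold enrichment 2.53), with 29.8% of the peaks in the OSKM list below it by q. The 300 bases at its centre are shown because it was the only Fosl1 peak of its own. Capitals mark 1 CANNTG core, present in 83.3% of such windows over all OSKM peaks. The AP-1 motif TGANTCA was not among these letters and was present in 8.27% of the windows.
Fosl1 intron 2, chr19:5451521-5451820, GRCm38, + strand: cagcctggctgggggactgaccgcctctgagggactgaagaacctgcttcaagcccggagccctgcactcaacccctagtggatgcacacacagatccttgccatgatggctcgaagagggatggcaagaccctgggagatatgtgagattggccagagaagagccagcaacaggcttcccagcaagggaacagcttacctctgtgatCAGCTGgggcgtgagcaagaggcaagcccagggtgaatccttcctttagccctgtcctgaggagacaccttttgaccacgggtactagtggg

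**Figure D2:**
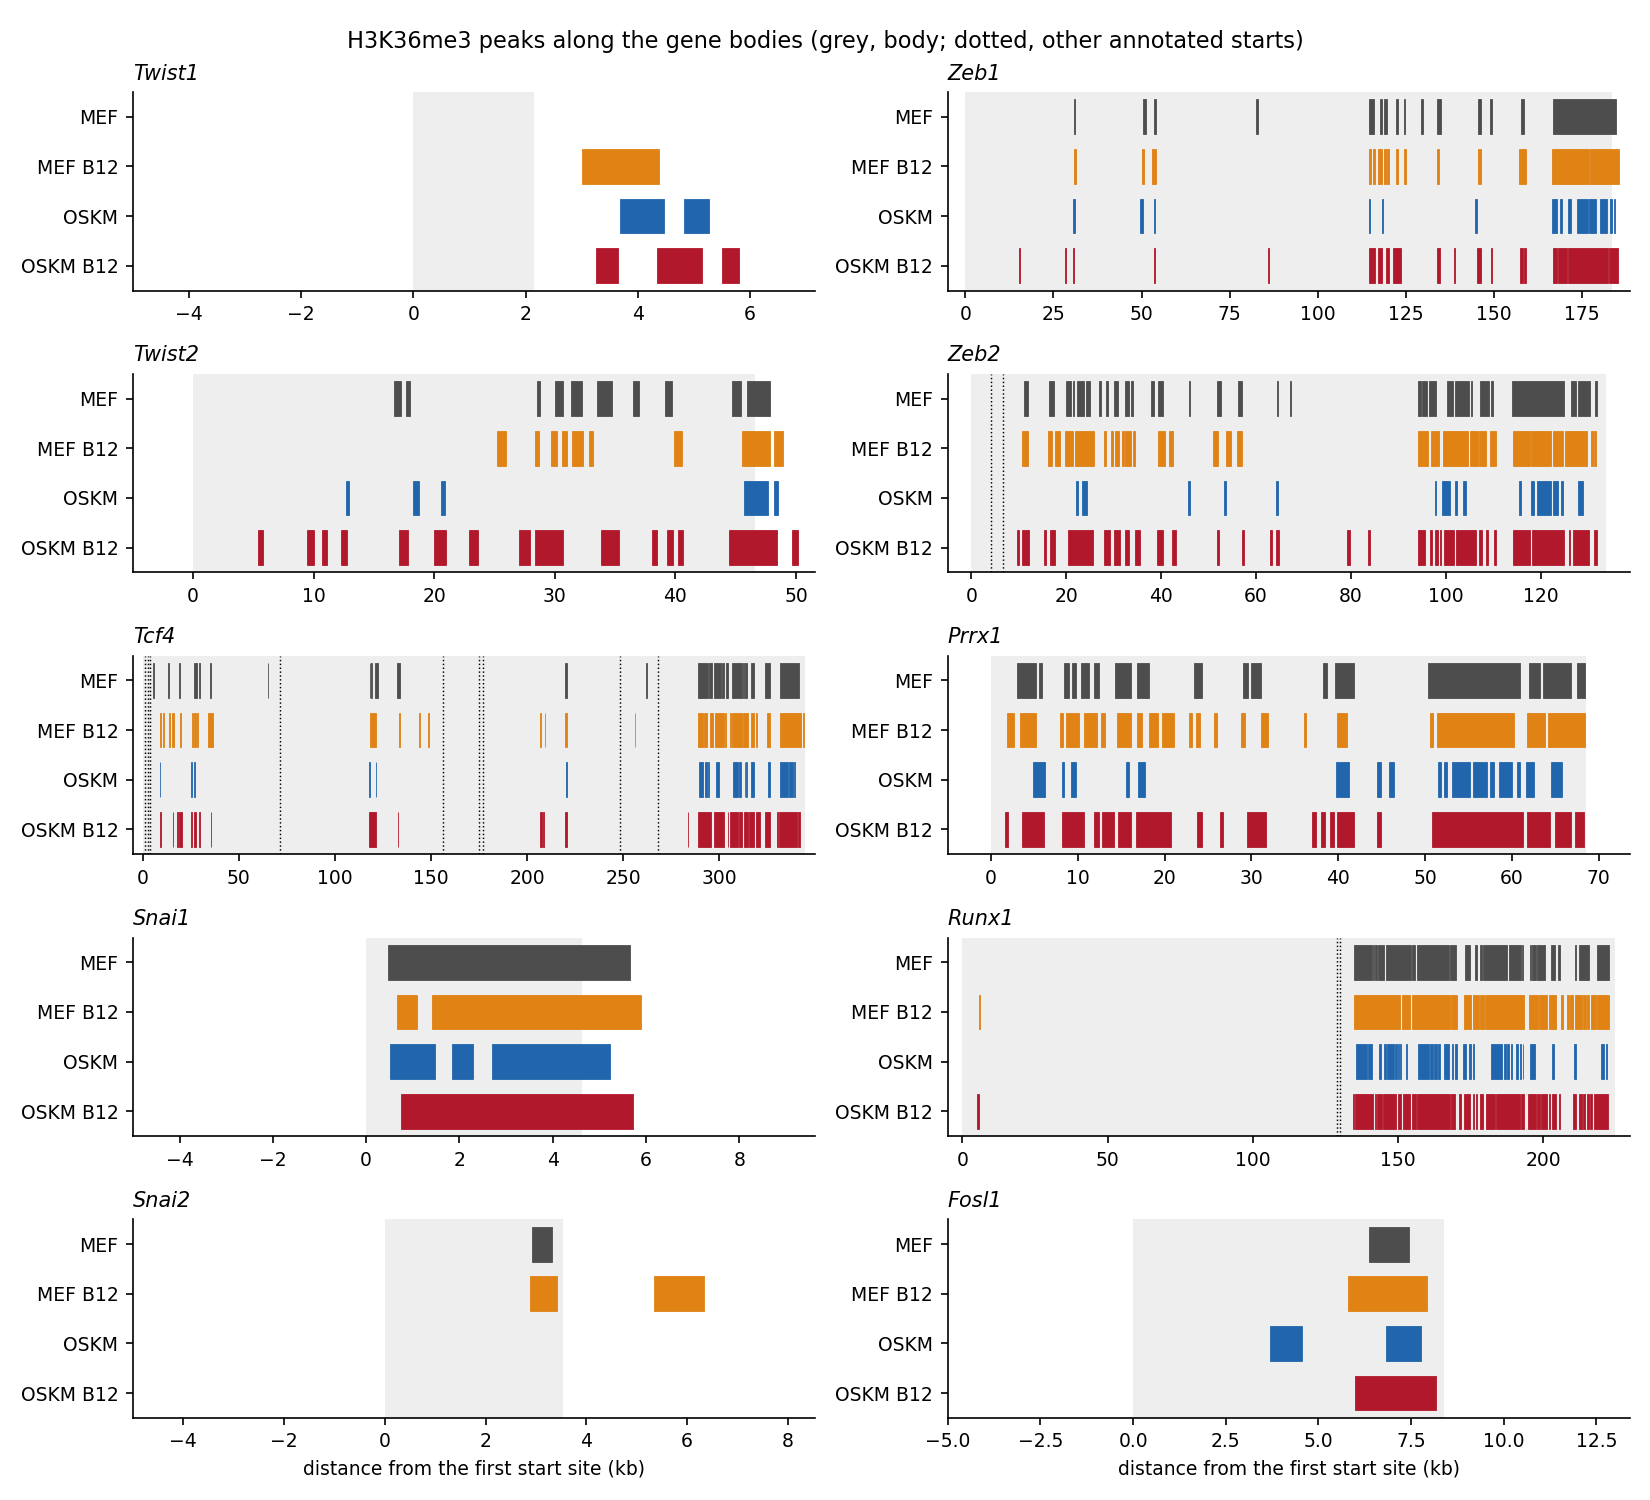
Positions of H3K36me3 peaks on the 10 genes, as distance from the first annotated start site (kb, drawn 5′ to 3′), with 1 row of coloured blocks for each library, the gene body in grey and the other annotated starts as dotted lines. Runx1 is bare before its inner starts apart from a block near 5.75 kb in MEF B12 and one near 5.13 kb in OSKM B12, the blocks of Tcf4, Zeb1 and Zeb2 are densest in the last part of the gene, and Twist1 has blocks past its 3′ end only.

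In OSKM, H3K36me3 was lower than in MEF on 8 of the 9 marked members, against 96.8% of all marked genes. The exception was Fosl1. The median of the members was close to that of all marked genes. The log2 change in density, with 0.05 added to both values, had a median of −0.73 over the 9 genes and of −0.70 over all marked genes. By a change of 1.5-fold or more, 7 of 9 were lower (Twist2, Snai1, Snai2, Zeb1, Zeb2, Prrx1 and Runx1), and so were 67.3% of all marked genes. Zeb2 had the lowest change, at −1.06, and 15.6% of marked genes had a lower one. Its density ratio of OSKM to MEF was 0.303, with a 95% counting interval of 0.278 to 0.330. Prrx1 had a ratio of 0.423 (0.389 to 0.460), Runx1 of 0.389 (0.366 to 0.413) and Snai1 of 0.608 (0.5002 to 0.739). Among members with a peak in both libraries Twist2 had the lowest ratio, 0.259 (0.202 to 0.331), but its log2 change was −0.73 because its density is close to the added constant. The log2 change of Snai2, −0.99, is likewise set by that constant, since the gene was listed with no peak in OSKM. Tcf4, at −0.55, was not called although its ratio of 0.436 (0.406 to 0.468) was below that of Snai1. Its density in MEF, 0.0644, is also close to that constant.

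When the median change of the marked genes was subtracted, 0 of 9 members were lower in OSKM by 1.5-fold or more, against 6.74% of marked genes. Fosl1 was the 1 member that was higher by this measure, against 4.21% of marked genes. Its log2 change was 0.14, and 98.7% of marked genes had a lower one, but its ratio of 1.18 had a counting interval of 0.840 to 1.65, and its signal outside Ccdc85b rested on the single intron 2 peak. Of the 7 members called lower, Snai1 no longer passed with gaps of at most 1 kb between peaks filled (−0.39), with fold enrichment over input (−0.37) or by covered share (−0.32). With pileup divided by its mean over shared bases, which scales the OSKM library up, 5 of 9 passed, against 32.4% of marked genes, and Snai1 (−0.28) and Zeb1 (−0.55) did not. With a pseudocount of 0.2, 0 of 9 passed, against 21.4%. Tcf4 passed by covered share (−0.89) and with a pseudocount of 0.01 (−0.97).

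In the presence of B12 the same comparison gave small differences for most members. OSKM B12 and MEF B12 differed by a median log2 change of 0.06 over the 9 genes and of 0.05 over all marked genes. This pair shares no library with the pair without B12 and does not involve the sparse OSKM library. Tcf4 (0.06), Zeb1 (−0.00), Zeb2 (−0.05), Fosl1 (0.07), Snai1 (0.20), Prrx1 (0.21) and Runx1 (−0.22) all lay within 1.5-fold. The ratio of Zeb1 was 0.999 (0.932 to 1.07) and that of Runx1 0.820 (0.785 to 0.856). Of the marked genes, 8.88% had a lower change than Runx1.

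A pair of genes left this range in opposite directions. Snai2 was the 1 of 9 that was lower by 1.5-fold or more, as were 1.92% of marked genes, or 2.33% relative to the median. Its log2 change of −1.08 was set by the added constant, 0.546% of marked genes had a lower one, and it had no peak left in any library once the −log10 q had to reach 5. Twist2 was the 1 of 9 that was higher, as were 3.3% of marked genes, or 2.81% relative to the median. Its log2 change was 0.89, its ratio 2.84 (2.42 to 3.33), and 98.6% of marked genes had a lower change. Of the 4 endothelial markers, Tek was also highest in OSKM B12, at 0.128 against 0.00993, 0.0144 and 0.0299 in MEF, MEF B12 and OSKM. Pecam1 and Cdh5 were listed with no peak in any library and Kdr had 0.00277 in OSKM B12 only, so that the summed density ran from 0.00993 to 0.131. Under that stricter limit the log2 change of Twist2 was 0.34, below 1.5-fold, and Runx1 was lower by 1.5-fold or more, at −0.62.

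**Figure D3:**
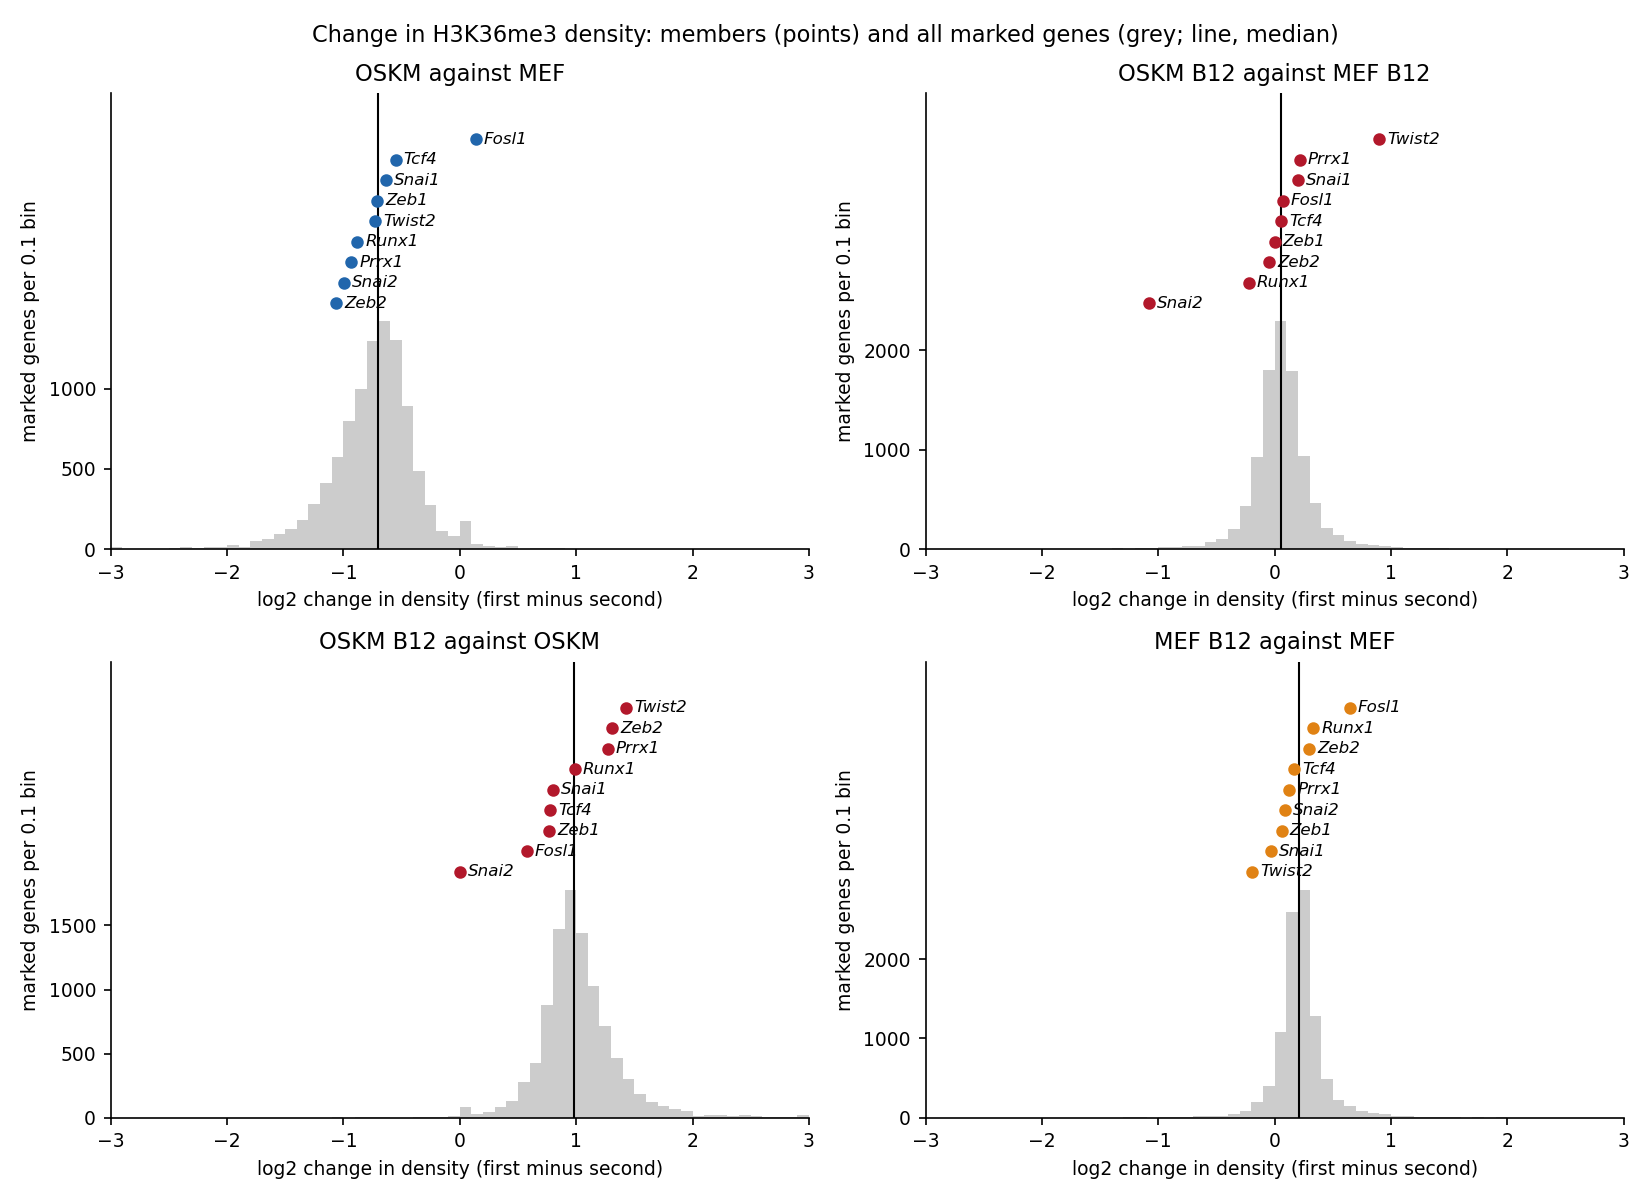
Log2 change in H3K36me3 density (x axis, first library minus second, 0.05 added to both) in 4 comparisons. Grey bars give the number of marked genes in each bin of 0.1 (y axis; changes beyond 3 are drawn in the last bin), the black line their median, and the labelled points, drawn above the bars for legibility, the 9 marked members. The points farthest from the median line are Fosl1 (0.14) in OSKM against MEF, Snai2 (−1.08) and Twist2 (0.89) in OSKM B12 against MEF B12, Snai2 (0.00) in OSKM B12 against OSKM, and Fosl1 (0.64) in MEF B12 against MEF.

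B12 added during OSKM induction went with higher H3K36me3 on 8 of the 9 marked members, against 98.8% of all marked genes. In OSKM B12 against OSKM the median log2 change was 0.80 over the members and 0.98 over all marked genes. By 1.5-fold or more, 7 of 9 were higher (all but Snai2 and Fosl1), as were 93.5% of marked genes. Twist2 had the highest change, 1.43, with a density ratio of 8.36 (6.62 to 10.6), followed by Zeb2 at 1.31 and 4.14 (3.80 to 4.5) and Prrx1 at 1.27 and 3.12 (2.88 to 3.38). Relative to the median of marked genes, 0 of 9 were higher by 1.5-fold or more, against 5.43%, and 1 of 9, Snai2, was lower, against 2.86%. Snai2 was listed with no peak in both libraries. This comparison shares the OSKM library with OSKM against MEF and the OSKM B12 library with OSKM B12 against MEF B12.

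In cells without doxycycline, B12 went with small differences. MEF B12 exceeded MEF by a median log2 change of 0.12 over the members and 0.21 over all marked genes. Fosl1 was the 1 of 9 that was higher by 1.5-fold or more, at 0.64 with a ratio of 1.99 (1.46 to 2.72), against 4.68% of marked genes. The higher signal lay in the bases shared with Ccdc85b. Relative to the median 0 of 9 passed, against 2.27%. Runx1 was next, at 0.33 and a ratio of 1.34 (1.29 to 1.40). Twist2 (−0.20) and Snai1 (−0.03) had lower densities in MEF B12, as did 8.98% of marked genes. The ratio of Twist2 was 0.761 (0.637 to 0.909), and 2.92% of marked genes had a lower change than Twist2.

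The same comparisons were made over bases called in each of the 4 libraries. This left 8 members, with 614 bases in Twist2 and 27446 in Runx1 at the extremes. Each base carried the average pileup of its whole peak, so the called extent of the peaks still entered these values. The mean pileup per 1000000 tags of OSKM relative to MEF was 0.703 to 0.852 over the 8 members and 0.754 over all such bases. On this scale and in the order MEF, MEF B12, OSKM and OSKM B12, Zeb2 had 0.606, 0.724, 0.514 and 0.681, and Runx1 0.564, 0.672, 0.416 and 0.629. For OSKM B12 relative to OSKM the ratios were 1.33 to 1.52, all below the 1.57 of all shared bases. For OSKM B12 relative to MEF B12 they were 0.936 to 1.12, against 1.04. For 7 of these 8 members OSKM had both a lower pileup than MEF and fewer bases called, while Fosl1 had a lower pileup on 1801 called bases against 1090. The part of peak calling in a library of lower enrichment was not tested.

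**Figure D4:**
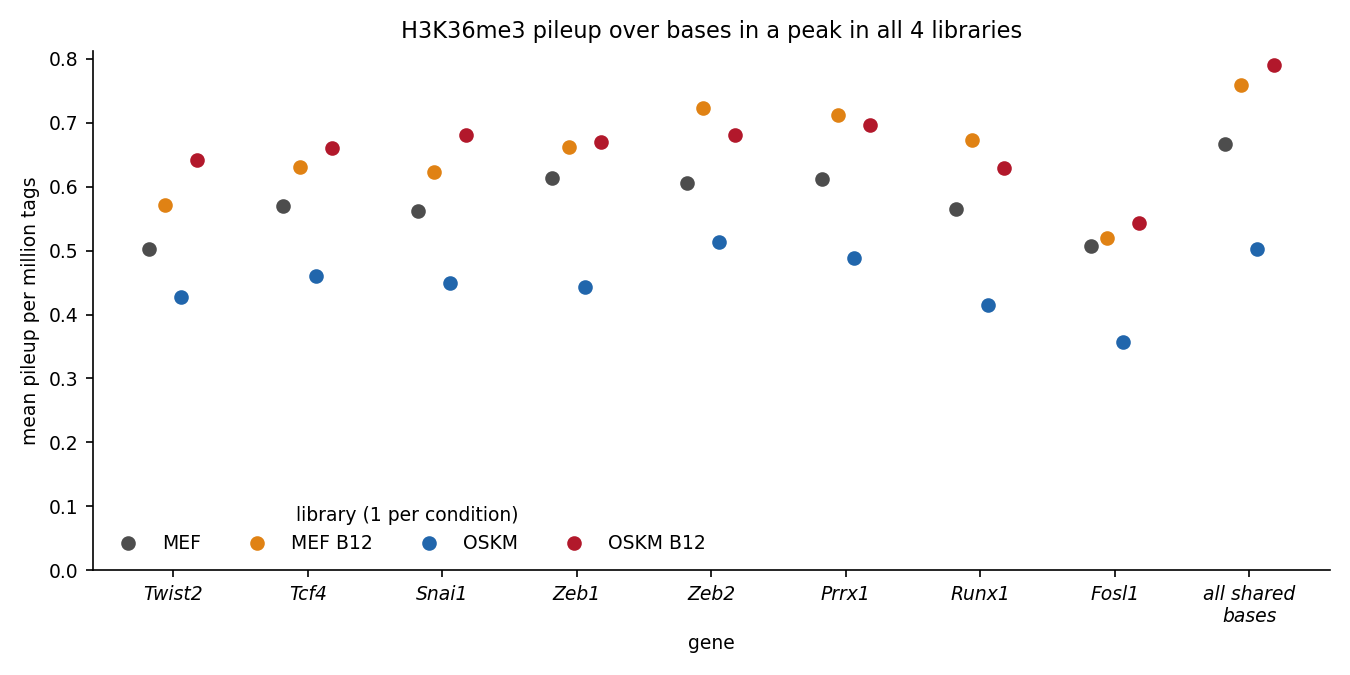
Mean H3K36me3 pileup per 1000000 tags (y axis, from 0) over the bases in a peak in all 4 libraries, for the 8 genes that have such bases and for all such bases of the genome, with 1 point for each library. The OSKM point is the lowest for every gene, with ratios to MEF from 0.703 (Fosl1) to 0.852 (Twist2).

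In position along the gene, the members differed from the average marked gene and from each other. Over all marked genes the mean covered share in MEF was 12.9%, 36.9%, 52.7%, 63.5% and 70.4% from bin 1 to bin 5. Prrx1 was covered over 37.1%, 30.6%, 27.8%, 37.6% and 84.0%, and Zeb2 over 20.99%, 21.8%, 5.25%, 27.8% and 65.0%. In MEF both exceeded the average in bin 1 and lay below it in bins 2 to 4, but in OSKM Zeb2 had 5.72% in bin 1 against an average of 7.09%. Runx1 was covered over 0%, 0%, 0.359%, 79.8% and 60.8% in MEF, and Snai1 over 50% in bin 1 and 100% in bins 2 to 5. Of the member peaks, 8.94%, 14.1%, 4.81% and 17.9% in MEF, MEF B12, OSKM and OSKM B12 overlapped no peak of another library, against 10.5%, 14.4%, 4.14% and 15.4% of all peaks.

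Genes that work with these factors, or belong to the same families, were listed by their known roles, and their counts are read beside the 67.3% of all marked genes that were lower by 1.5-fold or more in OSKM than in MEF and the median log2 change of −0.70. Of all marked genes, 1.93% were higher in OSKM than in MEF by any amount, so the share higher by 1.5-fold or more was at most that. Of 19 partners and relatives, 12 were marked, with 5 lower and 2 higher and a median of −0.52. The 2 higher genes, named after their values were seen, were Id2 (0 in MEF and 0.0420 in OSKM) and Id3 (0.0280 and 0.183). Id2 was marked through OSKM only, where 11.8% of its body was covered. Id3 was marked through OSKM (48.3%) and OSKM B12 (15.1%) only. Both thus entered the marked genes through libraries in which they were high. The highest densities in MEF in this list were those of Tcf3, an E protein gene like Tcf4 (0.771), the corepressor gene Ctbp1 (0.763), and the AP-1 genes Fosl2 (0.627) and Jun (0.260). In OSKM these were 0.558, 0.525, 0.337 and 0.112. The further E protein gene Tcf12, named after its values were seen, had 0.0685, 0.0843, 0.0312 and 0.0790 in MEF, MEF B12, OSKM and OSKM B12, close to Tcf4 with 0.0644, 0.0784, 0.0281 and 0.0837.

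Of 30 other fibroblast transcription factor genes, 18 were marked, with 7 lower and 1 higher and a median of −0.57. The 1 higher gene was marked through OSKM only. The highest in MEF were Tead2 (0.598), Hic1 (0.432), Srf (0.414) and Tead3 (0.321). Of 24 mesenchymal effector genes, 22 were marked, with 18 lower and 0 higher and a median of −0.77. The highest were Fn1, which encodes fibronectin (0.845 in MEF and 0.508 in OSKM), the receptor gene Pdgfra (0.843 and 0.499), the collagen I gene Col1a2 (0.843 and 0.467) and the matrix gene Sparc (0.769 and 0.437). In OSKM B12 against MEF B12, 2 of the 22 effectors and 3 of the 18 factors were lower by 1.5-fold or more, against 1.92% of marked genes, and 0 and 1 higher, against 3.3%.

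Of 20 epithelial genes that SNAIL, ZEB or TWIST proteins are known to repress, 5 were marked. Jup, which encodes the junction protein plakoglobin, had densities of 0.321, 0.371, 0.224 and 0.420 in MEF, MEF B12, OSKM and OSKM B12, and Esrp2, a splicing regulator of epithelial cells, had 0.249, 0.264, 0.182 and 0.351. Both were lowest in OSKM. In OSKM against MEF 2 of the 5 were lower by 1.5-fold or more and 1 higher, with a median of −0.44. The higher gene was Cldn7, named after its values were seen, at 0.00330, 0, 0.0526 and 0 in MEF, MEF B12, OSKM and OSKM B12. It was marked through OSKM only, where 12.7% of its body was covered. The genes outside the list whose density pattern over the 4 libraries was nearest to that of Snai1 were Mrpl19, Pcdh18 and Rpl34, at Euclidean distances of 0.0376, 0.0628 and 0.0837 on the log2 scale.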

How the data were processed

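Peak lists of 4 H3K36me3 ChIP–seq libraries were analysed, with 1 library per condition. Per the study's methods and the submitters' processing notes, alignment to mm10 by the authors used bowtie 0.12.9 and kept unique alignments; they then removed duplicates and called broad peaks with MACS2 2.2.6 in each library against its own input, at q cut-offs of 0.05 and 0.1. The antibody is named H3K36m3 in one label and H3K3me3 in the extraction text, and the study describes H3K36me3. The deposited pileup, a signal, gives for each peak the average stack of extended fragments. The deposited fold enrichment is a ratio of pileup to local input, and significance is deposited as −log10 of the p-value and q-value. Bases outside peaks have no value and counted as 0.

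Pileup was divided by H3K36me3 tags per 1000000 (libraries held 29046913 to 33399267 tags, which limits the enrichment that can be called) and joined to GENCODE M21 genes with Python 3.11 and numpy 2.4.6. Plots used matplotlib 3.10.9. Peaks on scaffolds (16, 15, 1 and 14) were left out. Log2 changes used a pseudocount of 0.05, which shrinks the changes of genes with little signal. A call was a change of 1.5-fold or more. The 95% intervals treat the estimated tags as Poisson counts and cover counting error only. Interval arithmetic was tested on random intervals. Calls were tested on MEF densities of which a random set was lowered by a known factor. No noise was added, so unchanged genes could not be called and differences between libraries were not covered. All 10 members were named, in order of role, and of each further list at most 4 genes, those with the highest density in MEF. Besides these, Tcf12, Id2, Id3 and Cldn7 were named after their values were seen. The members and lists were chosen with earlier results of these data known. Sequences come from RefSeq and GRCm38, and 6 of the 10 members matched the promoter table. The alternatives concerned the peaks counted, scaling, pseudocount, gene body, filter, fold and measure.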

Additional observations from a re-analysis of the deposited data

Results flagged for a closer look

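Among members whose 2 changes were each at least 0.10 in size, Twist2, Snai1 and Prrx1 were lower in OSKM than in MEF but higher in OSKM B12 than in MEF B12. The log2 changes without and with B12 were −0.73 and 0.89 for Twist2, −0.64 and 0.20 for Snai1, and −0.93 and 0.21 for Prrx1, so that the 2 effects differed by 1.62, 0.83 and 1.15. The median of all marked genes also went from −0.70 to 0.05, a difference of 0.76. The B12 effect on Twist2 likewise had opposite signs, −0.20 without and 1.43 with doxycycline, a difference of 1.62, beside 0.77 for the median marked gene. With 1 library per condition these differences were not tested, and both differences of Twist2 come from the same 4 values. For Snai1 the density ratio of OSKM B12 to MEF B12 was 1.16, with a counting interval of 0.974 to 1.39 that includes 1. The counting intervals of Twist2 and Prrx1 in this comparison lay above 1.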

How the results depend on the processing

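Of the 128 values of the 8 counts of called members under 16 alternatives, 93 stayed within 1.5 times the reported count and 35 did not. No direction of a called single-gene change was reversed. For OSKM against MEF, the 7 of 9 members lower by 1.5-fold or more became 1 of 9 at 2-fold (19.3% of marked genes, against 67.3%), 4 of 6 among genes of at least 4 exons (68.6%), 3 of 4 under the stricter −log10 q limit of 5 (77.6%), and 0 of 9 with a pseudocount of 0.2 (21.4%). Relative to the median gene, the 0 lower members became 3 by covered share, 7 with no filter on low values, 1 with pileup divided by its mean over shared bases, and 2 with a pseudocount of 0.01. With no filter the median is that of all 21853 genes, of which 10627 have no peak in their body in MEF. For counts relative to the median gene under these alternatives, here and below, no share of all genes is given. They can therefore not be read as departures from the other genes.

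For OSKM B12 against OSKM, the 7 of 9 higher members became 3 of 9 at 2-fold (46.7% of marked genes, against 93.5%), 4 of 4 under the −log10 q limit (95.4%), 3 of 9 with pileup divided by its mean over shared bases (37.9%), and 4 of 9 with a pseudocount of 0.2 (61.5%). Relative to the median gene, the 0 became 2 by covered share, 1 with gaps of at most 1 kb filled, 7 with no filter, 1 under the −log10 q limit, 1 with pileup divided by its mean over shared bases, and 2 with a pseudocount of 0.01. For OSKM B12 against MEF B12, 1 of 9 members, Snai2, was lower, as were 1.92% of marked genes. This became 0 of 6 among genes covered over at least 25% (1.25%) and 0 of 6 among genes of at least 4 exons (1.31%). With a pseudocount of 0.2 it became 0 of 9 (0.293%). The same 3 settings gave 0 relative to the median gene.

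For MEF B12 against MEF, the 1 of 9 members that was higher, Fosl1, became 0 of 9 at 2-fold (1.17% of marked genes, against 4.68%). The count was also 0 with bases shared with another gene left out (4.74%) and with fold enrichment over input (5.41%). It was 0 with pileup divided by its mean over shared bases (2.83%), with pileup not divided by tags (3.09%) and with a pseudocount of 0.2 (0.779%). Under the −log10 q limit 2 of 4 were higher (22.5%). Fosl1 had no peak at that limit and was not among them. Relative to the median gene, the 0 became 1 by covered share, 1 with no filter, 2 under the −log10 q limit and 1 with a pseudocount of 0.01. The causes were not tested.

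No paired analysis was possible because none of the conditions had a second library. Leaving out a replicate was not possible for the same reason. Bodies of Runx1 and Tcf4 cut at an inner start were added after seeing the data: the log2 change of Tcf4 in OSKM against MEF became −0.82, past 1.5-fold. Depth limits Snai2, Fosl1, Snai1 and Twist2 more than the other marked members, with 19.6, 61.7, 261 and 299 estimated tags in MEF.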
